A study of Mus musculus with 4 samples.

Results

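The genes described here make cholesterol and fatty acids under the control of the sterol regulatory element binding proteins (SREBPs). The 32 genes were chosen by name for their place in the pathway, with earlier results of these data known. They are represented by 53 probes among 40628 gene probes on a custom Agilent mouse array, and all 32 were among the 17033 genes tested. Total RNA was hybridised to 4 one-colour arrays, 2 from transformed C3H10T1/2 cells exposed to 2 mM phorone and 2 from transformed C3H10T1/2 cells labelled control. C3H10T1/2 is a mouse embryo fibroblast line. All 4 samples come from cells transformed beforehand with 2.5 µg/ml 3MC (3-methylcholanthrene, a polycyclic hydrocarbon carcinogen) for 2 days and, after 4 days in normal medium, with 100 ng/ml TPA (a phorbol ester tumour promoter) for 2 weeks, followed by 4 weeks without TPA. Phorone is an unsaturated ketone that binds glutathione and depletes it. How long phorone was applied, and whether the controls got a vehicle, is not stated in the sources used here. Nothing says that replicates were grown as separate cultures, so a p-value covers the spread of these samples alone, and that spread may be technical.

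SREBPs are made as membrane proteins of the endoplasmic reticulum, where Scap escorts them and Insig proteins hold Scap back while sterols are plentiful. When sterols run short, the complex moves to the Golgi, proteases release the transcription factor domain, and this enters the nucleus and binds sterol regulatory elements, often beside the factor NF-Y. The product of Srebf2 mainly drives cholesterol genes and that of Srebf1 mainly drives fatty acid genes, and several targets, Insig1 among them, feed back on the pathway.

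Promoter windows of 300 bases, 250 before and 50 after the annotated start (RefSeq, GRCm38.p6), were listed for 25 of the 32 genes; Fdft1, Fdps, Sqle, Stard4, Scd1, Scd2 and Fads1 are not among them. Both strands were searched for the sterol regulatory element TCACNCCAC and for CCAAT, the box bound by NF-Y; on the opposite strand the box reads ATTGG. The element was found in 1 of the 25 genes (4.0%), Hmgcs1, against 388 of 27025 genes with a window (1.44%). The NF-Y box was found in 20 of the 25 (80.0%), against 11096 of 27025 (41.06%), and 11 of the 25 (44.0%) held 2 or more boxes in a window, against 3585 genes (13.27%). Of the genes called lower below, 9 of 12 with a window held a box, as did 11 of 13 not called lower, so the box was common on both sides of the call. A match is a run of letters, not a measured binding site, and these arrays measured no binding. Only exact matches inside the windows were counted, so elements with other letters or outside the windows would be missed.

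Of the windows printed here, Hmgcs1, Idi1, Insig1 and Fasn belong to genes with lower signal on the phorone arrays and Ebp to a gene with higher signal. Capitals mark the 2 motifs. In the Hmgcs1 window the sterol regulatory element begins 137 bases before the start, and 4 NF-Y boxes lie around it. Idi1 and Ebp hold 2 boxes each and Insig1 holds 1. Of the 3 matches in Fasn, 2 overlap on opposite strands in the run CCAATTGG. The windows lie at chr13:119690101-119690400 (Hmgcs1, plus strand), chr13:8885356-8885655 (Idi1, plus), chr5:28071162-28071461 (Insig1, plus), chr11:120824498-120824797 (Fasn, minus) and chrX:8193463-8193762 (Ebp, minus).
Hmgcs1 promoter: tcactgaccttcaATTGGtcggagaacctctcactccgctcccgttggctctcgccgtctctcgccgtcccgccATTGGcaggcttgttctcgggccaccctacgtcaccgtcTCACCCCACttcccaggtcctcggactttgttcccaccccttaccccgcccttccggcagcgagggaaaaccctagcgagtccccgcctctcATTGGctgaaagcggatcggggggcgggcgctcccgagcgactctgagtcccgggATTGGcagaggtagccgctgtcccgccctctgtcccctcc
Idi1 promoter: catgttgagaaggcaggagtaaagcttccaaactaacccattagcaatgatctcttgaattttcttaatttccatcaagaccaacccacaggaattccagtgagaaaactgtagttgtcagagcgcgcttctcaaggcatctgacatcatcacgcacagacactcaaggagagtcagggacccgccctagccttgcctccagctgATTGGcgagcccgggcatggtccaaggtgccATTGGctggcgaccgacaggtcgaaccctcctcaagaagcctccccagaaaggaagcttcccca
Insig1 promoter: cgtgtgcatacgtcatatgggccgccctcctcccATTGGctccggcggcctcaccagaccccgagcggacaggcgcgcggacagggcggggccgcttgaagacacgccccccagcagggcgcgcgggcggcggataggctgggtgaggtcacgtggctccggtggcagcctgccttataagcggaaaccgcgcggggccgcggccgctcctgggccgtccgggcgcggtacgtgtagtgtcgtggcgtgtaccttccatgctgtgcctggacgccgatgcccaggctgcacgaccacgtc
Fasn promoter: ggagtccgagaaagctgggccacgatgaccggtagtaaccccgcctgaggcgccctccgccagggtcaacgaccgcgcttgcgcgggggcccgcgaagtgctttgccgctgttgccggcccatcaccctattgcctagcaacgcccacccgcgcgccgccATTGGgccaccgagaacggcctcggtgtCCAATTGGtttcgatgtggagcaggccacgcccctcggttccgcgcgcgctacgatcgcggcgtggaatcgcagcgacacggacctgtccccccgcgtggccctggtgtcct
Ebp promoter: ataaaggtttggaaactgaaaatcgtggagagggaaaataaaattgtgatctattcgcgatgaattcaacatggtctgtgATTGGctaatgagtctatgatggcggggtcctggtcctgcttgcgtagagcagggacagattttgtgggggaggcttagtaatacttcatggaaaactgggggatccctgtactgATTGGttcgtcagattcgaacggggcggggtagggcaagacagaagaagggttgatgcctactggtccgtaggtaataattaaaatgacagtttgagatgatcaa

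Signals are log2 values of the background-subtracted intensity relative to each array's 75th percentile, and a log2 fold change is the phorone mean minus the control mean. Genes were called at a Benjamini-Hochberg adjusted p below 0.05 in limma, adjusted over all 17033 genes. The share of spots well above background ran from 51.1% to 52.7% over the 4 arrays, with no saturated spot. Log2 values correlated across genes with r = 0.996 between the phorone arrays and 0.988 between the control arrays, and with 0.939 to 0.951 between the groups. The phorone arrays lay in slide row 2 and the control arrays in row 1, so slide row and group cannot be told apart. Fibroblast markers were well above background on all arrays (9 of 9), and 6 of the 9 were called lower. The log2 of their summed linear signal was 9.42 and 9.50 on the phorone arrays, against 10.58 and 10.63 on the control arrays. Such a summed level, given below for other markers too, weighs the brightest markers most. Of 7 adipocyte markers, 3 were above background on both arrays of each group (Pparg, Cebpa and Fabp4), and Adipoq, Plin1, Cfd and Lep were not tested because they were not above background; the summed level was 2.93 and 3.06 with phorone and 3.53 and 3.29 in controls. Of 6 macrophage markers, Ptprc, Adgre1 and Itgam were likewise not above background, and the summed level was -0.74 and -0.33 with phorone, against -0.81 and -0.76 in controls. The macrophage markers that were tested went both ways, with Cd68 called higher (log2 fold change 1.26), Lyz2 called lower (-1.74) and Csf1r not called (1.33). Of 4 endothelial markers, Tek alone was tested and was called lower, Pecam1, Cdh5 and Kdr were not above background, and the summed level was -4.98 and -4.21 with phorone, against -3.38 and -3.27 in controls. The part of these markers in the results was not tested. Fewer cells of a type and less RNA per cell cannot be told apart in such bulk samples.

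Phorone-exposed cells had lower signal for most of the pathway. Of the 32 genes, 19 were called lower (59.4%) against a background of 21.3% of all genes tested, and 2 were called higher, Ebp and Acly, against a background of 24.3%. The other 11 did not pass the test. Since the 32 were chosen with earlier results of these data known, these shares describe the list and do not test it. The median log2 fold change was -0.63, against 0.084 over all genes tested. At least 2-fold lower were 11 of the genes, against 12% of all genes tested. These 11 were Acat2, Hmgcs1, Idi1, Fdps, Tm7sf2, Dhcr7, Insig1, Scd1, Scd2, Elovl6 and Fads1, and each of them stayed called lower whichever single array was left out. The other 8 called lower lost the call in at least 1 such fit.

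Both phorone arrays lay below both control arrays in 22 of the genes (34.3% of all genes tested) and above them in 5 (43.6% of all genes), with overlap in 5. All 32 genes were well above background on all 4 arrays, so none of these differences rests on a bound. Arrays of a group differed by at most 0.68 (phorone) and 0.495 (control) on the log2 scale in these genes. Control replicate 2 lay above control replicate 1 in 25 of the 32 (78.1%), against 54.7% of all genes tested, while phorone replicate 2 lay above phorone replicate 1 in 13 (40.6%), against 50.7%.

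**Figure D1:**
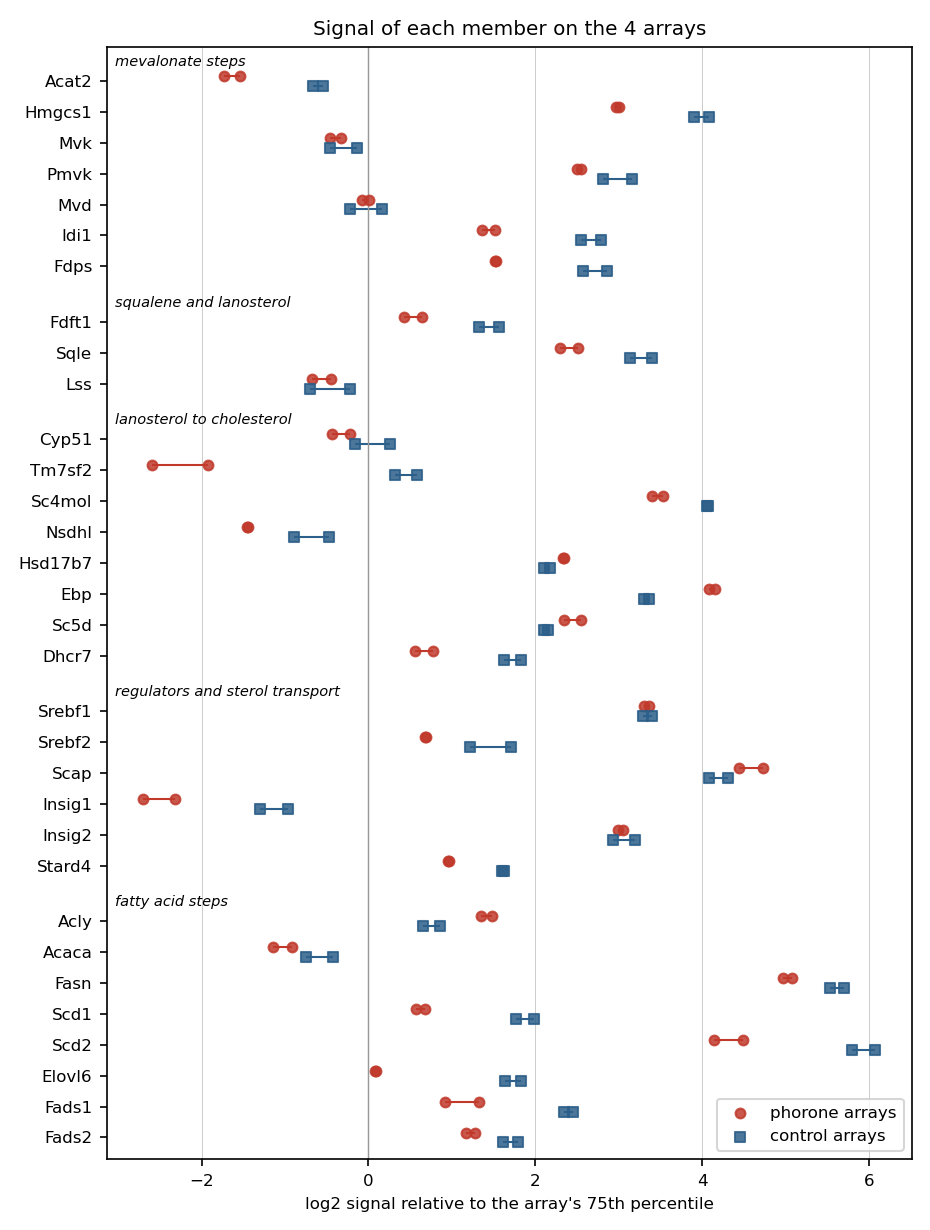
Log2 signal of the 32 genes relative to each array's 75th percentile (x axis), 1 row a gene grouped by pathway step, with a circle for each of the 2 phorone arrays, a square for each of the 2 control arrays and a line joining the arrays of a group. The phorone points lie left of both control points in 22 rows, right of both in 5 and among them in 5.

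The size of these differences depends on how the arrays are put on one scale. Scaled on 7 spike-in probes, RNA added in known amounts to each labelling, every gene moved up by the same 0.44, and 3 of the 32 were called lower (Tm7sf2, Scd2 and Elovl6; background 7.09%) and 1 higher (Ebp; background 17%). The median of the 32 was then -0.19 and that of all genes 0.52; the distance of 0.71 between them is the same under either scaling, since a constant shift cannot change it. Set against each array's 75th percentile and centred on the mean of the 4 arrays, the log2 signal of the spike-in probes was -0.13 and -0.31 on the phorone arrays, against -0.11 and 0.54 on the control arrays, and control replicate 2 thus stood apart from the other 3 arrays. Leaving out control replicate 2, chosen after seeing this, gave a median of -0.43 for the 32 on the spike-in scale, beside 0.20 over all genes. Leaving out control replicate 1 gave 0.088 for the 32, beside 0.79 over all genes. Directions below are relative to the 75th percentile.

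**Figure D2:**
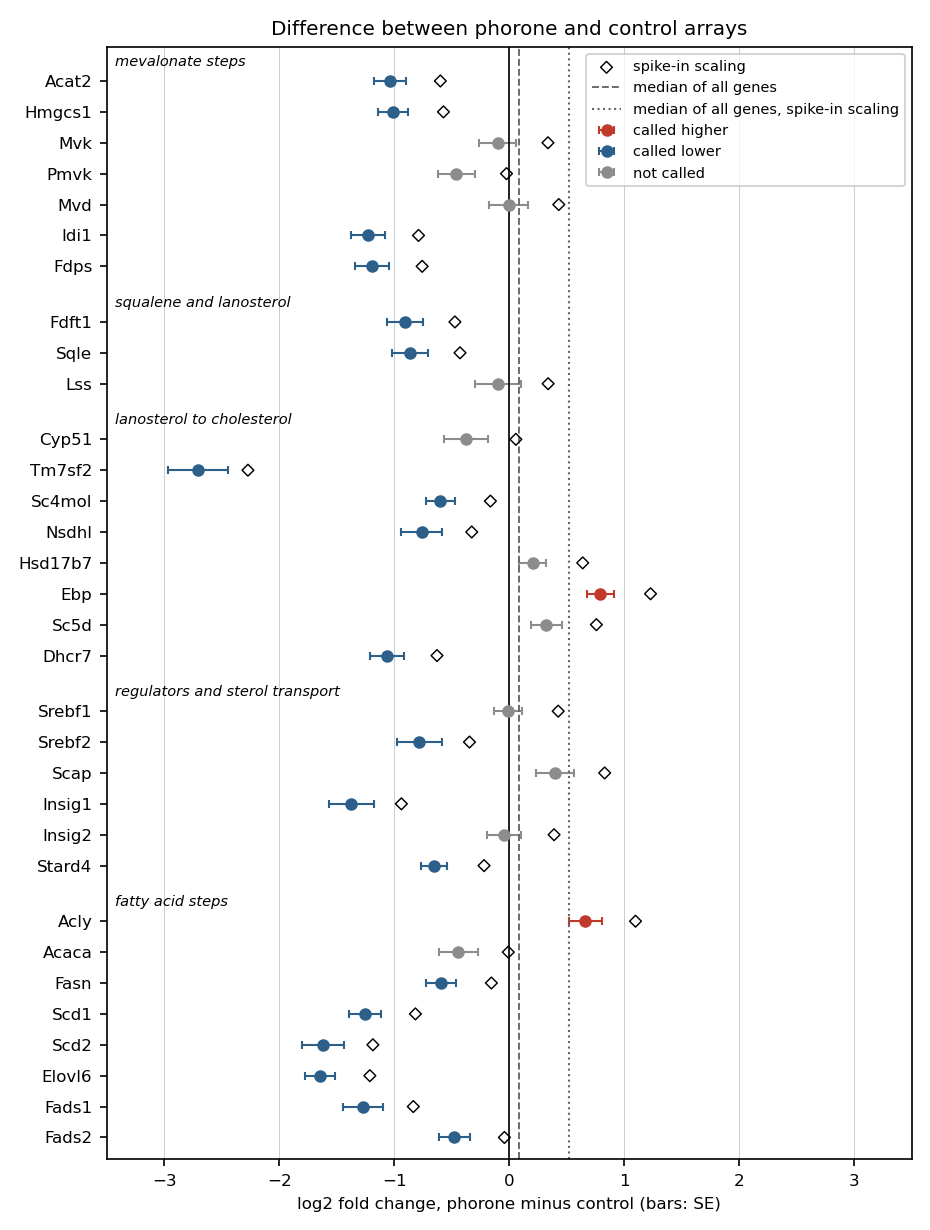
Log2 fold change, phorone minus control, of the 32 genes by pathway step (x axis; filled points, bars are the SE), coloured by the limma call, with open diamonds for the value under spike-in scaling. Most filled points lie left of 0 and of the median of all genes (dashed, 0.084), and each diamond lies 0.44 to the right of its point, beside an all-gene median of 0.52 (dotted).

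The mevalonate steps build the isoprene units from acetyl-CoA. Of 7 genes, 4 were called lower and 0 higher, with a median log2 fold change of -1.01. Acat2, which joins 2 acetyl-CoA molecules, had log2 signals of -1.54 and -1.74 on the phorone arrays, against -0.54 and -0.66 on the control arrays. The groups did not overlap, and the log2 fold change was -1.04 (SE 0.14, adjusted p = 0.00455). Hmgcs1, the HMG-CoA synthase whose window holds the sterol regulatory element, had 3.00 and 2.97 with phorone and 3.91 and 4.08 in controls. It fell by 1.01 on the log2 scale (SE 0.13, adjusted p = 0.00420), or to 0.497 of the control level.

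Downstream in the same stretch, Idi1, which isomerises isopentenyl pyrophosphate, had 1.36 and 1.52 with phorone, against 2.55 and 2.79 in controls. Its log2 fold change of -1.23 (SE 0.15, adjusted p = 0.00348) was the lowest among the mevalonate genes. Fdps, which makes farnesyl pyrophosphate, was almost the same on both phorone arrays, 1.52 and 1.53, against 2.58 and 2.86 in controls (log2 fold change -1.19, SE 0.15, adjusted p = 0.00377). The kinases and the decarboxylase between Hmgcs1 and Idi1 did not pass the test. Pmvk had 2.49 and 2.55 with phorone, against 2.81 and 3.16 in controls, groups apart but with an adjusted p of 0.0692 (log2 fold change -0.46). Mvk and Mvd overlapped between groups, with log2 fold changes of -0.10 (adjusted p = 0.631) and -0.01 (adjusted p = 0.978). By the brightest probe, the called genes thus stood before (Acat2, Hmgcs1) and after (Idi1, Fdps) these 3 enzymes.

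Of the 3 genes that carry farnesyl pyrophosphate to lanosterol, 2 were called lower and the last was not (median log2 fold change -0.86). Fdft1, squalene synthase and the first enzyme committed to sterols, had 0.64 and 0.42 with phorone, against 1.32 and 1.57 in controls (log2 fold change -0.91, SE 0.16, adjusted p = 0.00920). Sqle, squalene epoxidase, had 2.30 and 2.51 with phorone, against 3.14 and 3.40 in controls (log2 fold change -0.86, SE 0.16, adjusted p = 0.0106). Neither gene's groups overlapped, but Fdft1 lost its call without phorone replicate 2 and Sqle without phorone replicate 1. Lss, which closes the sterol rings, overlapped between the groups, at -0.67 and -0.44 with phorone and -0.70 and -0.22 in controls (log2 fold change -0.10, SE 0.20, adjusted p = 0.711).

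The steps from lanosterol to cholesterol were mixed, with 4 of 8 genes called lower, 1 higher and a median log2 fold change of -0.49. Tm7sf2, a sterol reductase that acts right after Cyp51, had the lowest log2 fold change of the 32 genes. Its log2 signals were -1.92 and -2.60 with phorone, against 0.32 and 0.58 in controls, a log2 fold change of -2.71 (SE 0.26, adjusted p = 0.00186) or 0.153 of the control level. Its phorone arrays also differed more from each other (0.68) than those of any other of the 32 genes, and the gap between the groups was still larger than that. Dhcr7, the last reductase of one branch and the gene affected in Smith-Lemli-Opitz syndrome in humans, had 0.77 and 0.55 with phorone, against 1.63 and 1.83 in controls (log2 fold change -1.07, SE 0.15, adjusted p = 0.00524).

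Sc4mol and Nsdhl act in turn in removing methyl groups from the sterol rings. Sc4mol, now named Msmo1, had 3.40 and 3.53 with phorone, against 4.07 and 4.06 in controls, and Nsdhl had -1.44 and -1.45, against -0.89 and -0.47. Both were called lower, by log2 fold changes of -0.60 (SE 0.12, adjusted p = 0.0155) and -0.76 (SE 0.18, adjusted p = 0.0218), and both lost the call when either phorone array was left out. Ebp, the sterol isomerase, went the other way, with 4.15 and 4.09 with phorone, against 3.36 and 3.30 in controls (log2 fold change 0.79, SE 0.12, adjusted p = 0.00650). It was called higher under both scalings, at 1.23 on the spike-in scale, and in each fit that left out 1 array. Its window holds 2 NF-Y boxes, as does that of Idi1, which was lower.

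The other 3 genes of this stretch did not pass the test. Hsd17b7, the keto-reductase of the demethylation steps, had 2.33 and 2.35 with phorone, against 2.10 and 2.17 in controls (log2 fold change 0.20, adjusted p = 0.217). Sc5d, the desaturase whose product Dhcr7 reduces, had 2.34 and 2.55, against 2.15 and 2.11 (log2 fold change 0.32, adjusted p = 0.109). In both genes each phorone array lay above both controls, but neither gene was called. Cyp51, the lanosterol demethylase, had -0.44 and -0.22 with phorone, against -0.17 and 0.26 in controls (log2 fold change -0.38, SE 0.19, adjusted p = 0.162), and its probes disagreed, as described below.

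Among the 6 genes for regulators and sterol transport, 3 were called lower and 0 higher (median log2 fold change -0.35). Insig1, the sterol-responsive anchor of Scap, had -2.70 and -2.32 with phorone, against -1.30 and -0.97 in controls, and fell by 1.37 on the log2 scale (SE 0.20, adjusted p = 0.00544). Its paralog Insig2 overlapped between the groups, with 3.05 and 2.99 with phorone and 3.20 and 2.94 in controls (log2 fold change -0.05, adjusted p = 0.805). The difference between the 2 paralogs was not tested. Srebf2 had 0.69 and 0.68 with phorone, against 1.22 and 1.71 in controls (log2 fold change -0.78, SE 0.19, adjusted p = 0.0271), while Srebf1 had 3.37 and 3.31, against 3.29 and 3.40 (log2 fold change -0.01, SE 0.12, adjusted p = 0.947). The control arrays of Srebf2 differed by 0.495, the most of any of the 32 genes.

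Scap, the sterol sensor, had 4.73 and 4.44 with phorone, against 4.08 and 4.31 in controls, groups apart upwards but not called (log2 fold change 0.39, SE 0.17, adjusted p = 0.110). Stard4, a carrier of cholesterol in the cytosol, had 0.95 and 0.97 with phorone, against 1.60 and 1.63 in controls (log2 fold change -0.66, SE 0.12, adjusted p = 0.0102). Srebf2 and Stard4 lost the call when either phorone array was left out, and the step median was 0.084 under spike-in scaling. All of these are mRNA levels, and the cleavage and nuclear entry of the SREBP proteins were not measured.

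Of the 8 genes of fatty acid synthesis and desaturation, 6 were called lower and 1 higher, with a median log2 fold change of -0.92. The largest decreases were in elongation and desaturation. Elovl6, which extends palmitate to stearate, had 0.08 and 0.09 on the phorone arrays, against 1.64 and 1.83 on the control arrays. Its log2 fold change of -1.65 (SE 0.13, adjusted p = 0.00121) put it at 0.319 of the control level. The stearoyl-CoA desaturases, which make oleate from stearate, both fell, and Scd2 had 4.49 and 4.14 with phorone, against 5.80 and 6.08 in controls (log2 fold change -1.62, SE 0.18, adjusted p = 0.00297). Scd1 had 0.68 and 0.57 with phorone, against 1.99 and 1.76 in controls (log2 fold change -1.25, SE 0.14, adjusted p = 0.00286). The longest run of bases shared by the Scd1 and Scd2 probes was 6. Neither probe was compared with the other gene's transcript, so whether either also reads that transcript was not tested.

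The desaturases of polyunsaturated fatty acids lie side by side as a gene cluster in mammals. Fads1 had 1.33 and 0.92 with phorone, against 2.34 and 2.45 in controls (log2 fold change -1.27, SE 0.18, adjusted p = 0.00502). Fads2 had 1.28 and 1.17, against 1.61 and 1.80 (log2 fold change -0.48, SE 0.14, adjusted p = 0.0390), groups apart with the smallest change among the called genes. Fasn, the synthase that makes palmitate, had 5.08 and 4.97 with phorone, against 5.53 and 5.70 in controls (log2 fold change -0.59, SE 0.13, adjusted p = 0.0196).

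Acly and Acaca supply Fasn with its substrates. Acly, which makes cytosolic acetyl-CoA from citrate, had 1.34 and 1.48 with phorone, against 0.86 and 0.65 in controls, and was called higher (log2 fold change 0.66, SE 0.14, adjusted p = 0.0171). Acaca, which makes malonyl-CoA, had -0.92 and -1.15, against -0.75 and -0.43, groups apart downwards but not called (log2 fold change -0.45, SE 0.17, adjusted p = 0.0878). Fads2, Fasn and Acly lost their calls without control replicate 2 and without either phorone array. Under spike-in scaling Acly stood at 1.10 and was not called, and of this stretch only Scd2 and Elovl6 were called lower.

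Several genes had more than 1 probe, and the brightest stood for the gene above. Of the 53 probes, 49 were kept, of which 24 were called lower (background 20.3% of 24207 kept gene probes), 2 higher (background 25.5%) and 23 not called, with a median log2 fold change of -0.59. The second probes of Idi1 (-0.65), Insig1 (-0.86) and Dhcr7 (-1.31) were called lower like the first. In Lss, Pmvk, Insig2 and Acaca no kept probe was called. Probes of the same gene shared runs of at most 10 bases, except for the dimmer 2 of Stard4, which shared 20.

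In Cyp51 and Mvk the brightest probe was not called while another was called lower. The third Cyp51 probe had -2.49 and -2.25 with phorone, against -1.08 and -0.88 in controls, a log2 fold change of -1.39 against -0.38 and -0.44 for the others. The second Mvk probe had -1.15 and -1.21 with phorone, against -0.51 and -0.30 in controls, a log2 fold change of -0.77 against -0.10. In Stard4 the brightest probe was called lower and the dimmer 2 stood at 0.39 and 0.24, not called, so that the mean over its probes was -0.01 and the call was lost. Hmgcs1, Nsdhl and Fasn each had 1 or 2 further probes with negative log2 fold changes that were not called (-0.27 in Hmgcs1, -0.43 and -0.68 in Nsdhl, -0.86 in Fasn), and Nsdhl lost its call when its probes were averaged. The 2 Hsd17b7 probes stood at 0.20 and -0.37, neither called.

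**Figure D3:**
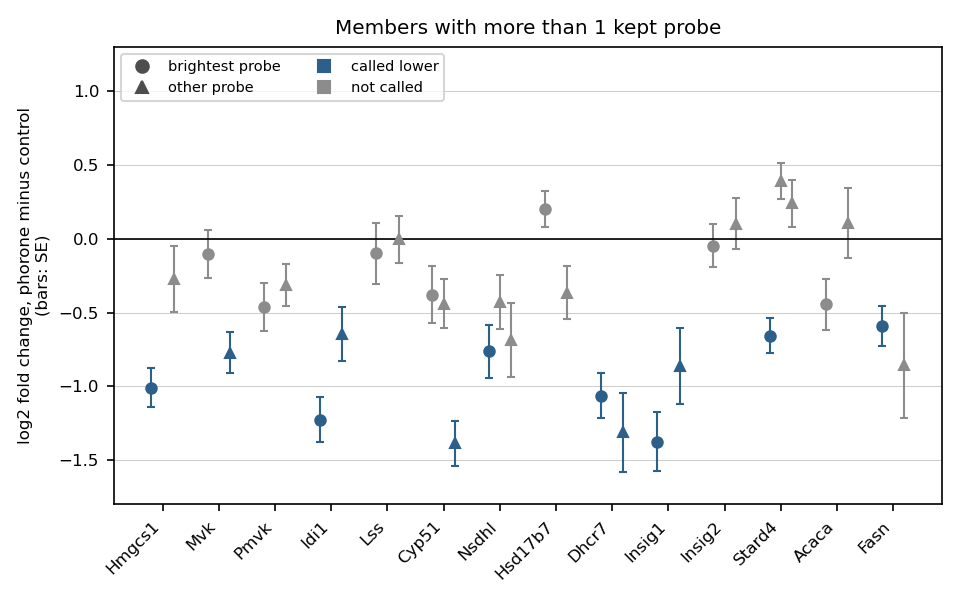
Log2 fold change, phorone minus control, of each kept probe (y axis; bars are the SE) of the genes with more than 1 kept probe, coloured by the limma call over all kept probes, with circles for a gene's brightest probe and triangles for the others. Cyp51 and Mvk each hold 1 lower probe beside uncalled ones, and Stard4 holds probes on both sides of 0.

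Other genes of lipid metabolism were grouped by role, and their counts stand beside all-gene shares of 21.3% called lower and 24.3% called higher, or 7.09% and 17% on the spike-in scale. Of 19 further sterol and SREBP genes, 6 were called lower and 6 higher (31.6% each; median log2 fold change -0.20). On the spike-in scale 2 were lower and 3 higher, with a median of 0.23 beside the all-gene 0.52, and with probes averaged per gene the median was 0.10. The higher genes included Pgrmc1 (1.18), Erlin1 (0.96) and Por (0.93), a haem-binding membrane protein, a membrane protein of the endoplasmic reticulum and the reductase that feeds electrons to Cyp51 and Sqle.

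The branch that uses farnesyl pyrophosphate for prenyl groups, dolichol and ubiquinone had 7 of 12 genes called higher (58.3%) and 1 lower (8.33%), with a median log2 fold change of 0.57. Ggps1, which makes geranylgeranyl pyrophosphate, had 2.08 and 2.13 with phorone, against 1.05 and 1.24 in controls (log2 fold change 0.95, SE 0.13, adjusted p = 0.00500). Fntb, the catalytic farnesyltransferase subunit, stood at 0.95, with a second probe at -1.30 called lower, and Pdss1, which makes the ubiquinone tail, stood at 0.82. Coq2, which joins that tail to the ring, was lower at -0.72. On the spike-in scale 3 of the 12 were called higher and 0 lower. With probes averaged, 5 were higher (median 0.34), where 25.1% of all genes were called higher. With no filter on dim probes 2 were higher, where 7.86% of all genes were.

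The next list held the liver X receptors (LXR) and genes of sterol export, storage and oxidation. Of its 11 tested genes, 3 were called higher and 3 lower (27.3% each, near the all-gene shares), with a median log2 fold change of 0.28. Abca1, the cholesterol exporter and a known LXR target, had -0.12 and -0.71 with phorone, against 2.25 and 2.39 in controls (log2 fold change -2.73, SE 0.22, adjusted p = 0.00130). Npc2, a lysosomal cholesterol carrier, was lower at -0.72, and Ch25h, a sterol hydroxylase, was not well above background with phorone and at least 1.29-fold lower there. Nr1h3, which encodes the alpha form of LXR, was higher at 1.50, the lipoprotein receptor Scarb1 at 1.05 and the lysosomal exporter Npc1 at 0.83. Nr1h3 was dim in controls, at -4.46 and -4.60, near the dimmest above-background signals of those arrays (-4.82 and -4.80).

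Of 22 tested genes of other fatty acid and glycerolipid synthesis, 7 were called lower (31.8%) and 3 higher (13.6%), with a median log2 fold change of -0.26. Tecr, the last reductase of fatty acid elongation, stood at -1.25, the acyl-CoA synthetase Acsl3 at -1.20 and Slc25a1, which exports citrate from mitochondria, at -1.17. Gpam, which starts glycerolipid synthesis, was higher at 1.00, the elongation reductase Hsd17b12 at 0.78 and malic enzyme Me1 at 0.52. On the spike-in scale 2 of these 22 were called higher and 0 lower. Of 11 tested genes of fatty acid oxidation, 2 were called lower (18.2%) and 3 higher (27.3%), near the all-gene shares, with a median of -0.076. Ppargc1a, a transcriptional coactivator of mitochondrial genes, was lower at -2.19, and its phorone arrays lay far apart at -3.96 and -2.23, against -0.76 and -1.05 in controls. Acadm, the medium-chain dehydrogenase, stood at -0.79, Acadvl, the very-long-chain dehydrogenase, at 0.70, Cpt2 at 0.50 and Ppard, above background on 1 control array and both phorone arrays, at 0.83.

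**Figure D4:**
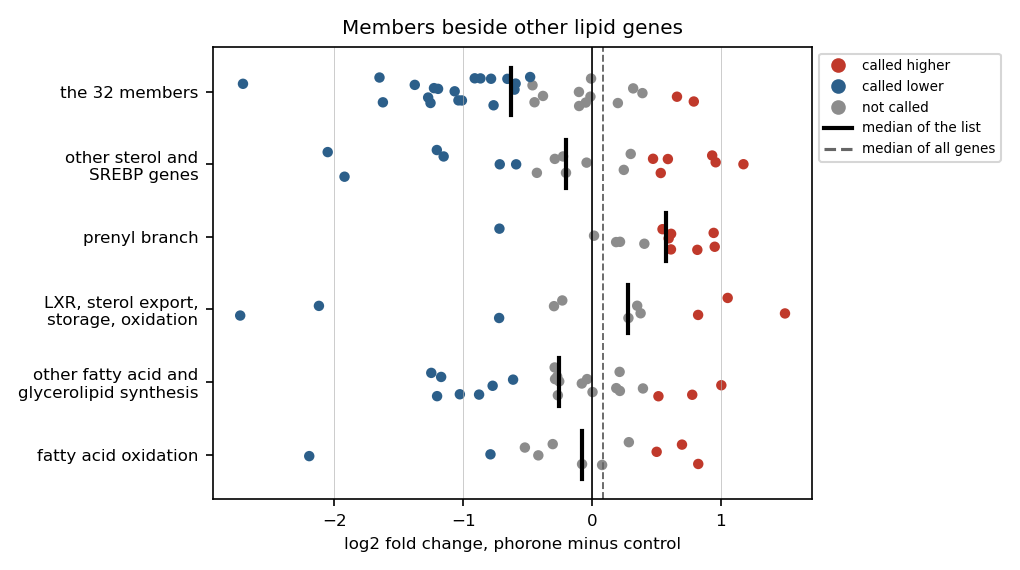
Log2 fold change, phorone minus control, of the 32 genes (top row) and of the genes tested in 5 further lipid lists (x axis), 1 point a gene, coloured by the limma call, with the median of each row as a bar; Ch25h, not above background with phorone, is drawn at its fitted -2.12. The medians run from -0.63 for the 32 genes to 0.57 in the prenyl branch, beside 0.084 over all genes tested (dashed).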

How the data were processed

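RNA was measured on 2 phorone and 2 control arrays; groups and replicate numbers come from the sample titles. Intensity was read with Agilent Feature Extraction 10.7.3.1, per the file headers, and the deposited processed signal has local background subtracted and no scaling between arrays. A value table deposited by the authors gives log2 values; set against the scanner values, each column was the log2 processed signal minus a number within 0.0102 of that array's log2 75th percentile, with column medians of -4.37 and -4.30 (phorone) and -4.39 and -4.36 (control), so scale, centring and direction are known.

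From the processed signal, log2 values minus the 75th percentile were averaged over spots of a probe, without outlier-flagged spots (111 probes lost). Probes had to be well above background on the 2 arrays of a group, in either group; a gene was represented by its brightest such probe. Probes were named through RefSeq accessions (28128 of 40628, 69.2%), otherwise by the array's own name. The comparison used limma 3.58.1 with R 4.3.3 (2 residual and 3.03 prior degrees of freedom, two-sided), tested beforehand on simulated data. The 75th percentile was 563 and 572 with phorone and 701 and 747 in controls. The number of arrays limits the precision. The 32 genes and the other lists were chosen with earlier results of these data known. Named genes were all 32, and up to 3 called genes each way with the largest change in each further list. Some genes that this rule would name are not reported here. Where a gene was not above background in 1 group, the fold is a bound, the brighter mean over the dim probe's own value or, if higher, the dimmest signal above background. Alternatives covered background correction, scaling, filters, probes, the value table, the replicate block and each array left out.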

Additional observations from a re-analysis of the deposited data

How the results depend on the processing

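The median of the 32 lay 0.64 to 0.77 below that of all genes under normexp, quantile normalisation, the other filters, averaged probes, added noncoding probes and each array left out; median or spike-in scaling, the value table and the replicate block cannot change that distance of 0.71. Under spike-in scaling, 1208 genes and 3 of the 32 were called lower and 1 higher, the median of the 32 was -0.19, and step medians were -0.57 (mevalonate), -0.43 (squalene and lanosterol), -0.055 (lanosterol to cholesterol), 0.084 (regulators and transport) and -0.49 (fatty acid). On that scale without control replicate 1, 9243 genes were higher and 1586 lower, 6 of the 32 higher and 4 lower, with a median of 0.088 and step medians, in the same order, of -0.22, -0.23, 0.16, 0.39 and -0.15; there Sc4mol stood at 0.16, Insig2 at 0.84, Stard4 at 0.089, Fasn at 0.086 and Fads2 at 0.19. Without control replicate 2, 2607 genes were higher, 10 of the 32 lower and 1 higher, and the squalene and lanosterol-to-cholesterol medians were -0.63 and -0.25. With no filter on dim probes, 2305 genes (7.86%) and 1 of the 32 were higher. With probes averaged per gene, the mevalonate and regulator medians were -0.64 and -0.0096. The cause of these moves was not tested, apart from the constant shift that spike-in scaling adds by construction. Leaving out each array in turn gave 2030 to 3750 genes higher, 2340 to 3610 lower, 12 to 20 of the 32 lower and 1 to 2 higher; the lone array left in a group is assumed to vary like the other group. The share of all genes called, either way, was smaller in each of these fits than with all 4 arrays. A smaller count among the 32 there is thus not particular to them. The replicate number was no evident pairing (r = -0.0199 across genes between deviations of same-numbered arrays, 2 pairs). With the replicate block, 18 of the 32 were lower, beside 19.8% of all genes, and 2 higher, beside 21.3%. Fads2 lost its call there. Probe-specific readings and 2 arrays a group limit the precision.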
